A study of Caenorhabditis elegans with 4 samples.

Results

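The genes described here are 10 genes of the EGF, Ras and Notch signals that pattern the vulva of Caenorhabditis elegans: lin-3, let-23, let-60, lin-1, lin-31, lin-12, lag-1, lag-2, apx-1 and egl-17. They were chosen by name for their roles in the pathway, with earlier results of these data known. They are 10 of the 19973 protein-coding genes on the nuclear chromosomes. Each was taken as its gene body with 5000 bp on each side on the ce11 build, called its window below. UNC-62 binding, mapped by ChIP-seq, was read from the authors' lists of regions in these windows.

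All samples form 1 group, mixed-sex whole L3 larvae of strain OP600, whose genotype per the labels is unc119(ed3) with wgIs600(unc-62::TY1 EGFP FLAG;unc119). UNC-62 is a TALE homeodomain protein of the MEIS family, and the precipitated protein was the eGFP-tagged transgene product. The labels do not say which promoter drives the transgene, and no untagged strain, mutant or other stage is among the samples. There were 4 biological replicates, split by their labels into set A (1 and 2, with fragments listed at 150 to 350 bp) and set B (3 and 4, with microtip sonication). Peak lists measure no transcripts, so the labelled stage could not be checked against marker genes.

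During the L3 stage the anchor cell of the gonad secretes the EGF-type ligand LIN-3, which acts through the receptor LET-23 and the Ras protein LET-60 in the vulval precursor cells. The precursor cell nearest to the anchor cell takes the primary fate and makes Notch ligands, and its neighbours take the secondary fate through the receptor LIN-12 and the DNA-binding effector LAG-1. The precursor cells are few among the cells of a whole larva. In such material, strong binding in few cells and weak binding in many cells cannot be told apart.

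The authors' optimal list, thresholded for recurrence between replicates by the irreproducible discovery rate, held 1037 peaks, and these were the 1037 highest-signal regions of the merged list of 18556. The replicate lists held 28073 to 30000 regions. The lists give a signal value per region and no read counts, so depth is unknown. Signal is the authors' own value on a scale that differs between lists, and replicates were therefore compared by rank, with rank 1 the highest signal. The 1037 highest regions of replicates 1 to 4 overlapped 78.9%, 59.8%, 51.5% and 32.2% of the optimal peaks, so replicate 4 stood lowest and replicate 1 highest.

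Optimal peaks lay in the windows of lin-3, lag-1 and let-60, and none lay at the start of any of the 10 genes. The count was 3 of 10 genes, beside 10.4% of all protein-coding genes with an optimal summit in a window made the same way. With 2000 bp on each side the count was 2 of 10 (lag-1 and let-60) beside 5.97%. At starts, from 1000 bp upstream to 200 bp downstream, the count was 0 of 10 beside 2.63%. The windows of these genes had a median length of 19582 bp against 12027 bp for all genes, and a longer window can hold more summits.

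Below the optimal set, all 10 genes had at least 1 region of the merged list, beside 82.1% of all genes. The 10 windows held 41 merged regions, which is 2.1 per 10 kb (95% exact Poisson interval 1.51 to 2.85) against 1.85 per 10 kb of the nuclear genome. Optimal summits numbered 0.154 per 10 kb in the windows and 0.103 per 10 kb in the genome. The interval for merged regions holds the genome value, but it treats summits as independent, and some of the regions overlap. A difference in density was not tested, and the optimal density rests on 3 peaks. The median signal of the 41 regions was 14.6 and that of the whole merged list was 14.2. Of the 41, 35 ranked below 2074, which is the double of the optimal list's size. By definition all but 2074 of the 18556 merged regions do so. Of the 41, 35 were among the 1037 highest regions of no replicate, 3 overlapped a region in all 4 replicate lists, and 1 overlapped none. The shares of the whole merged list were not computed for these replicate counts, which therefore describe the 41 regions only.

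**Figure D1:**
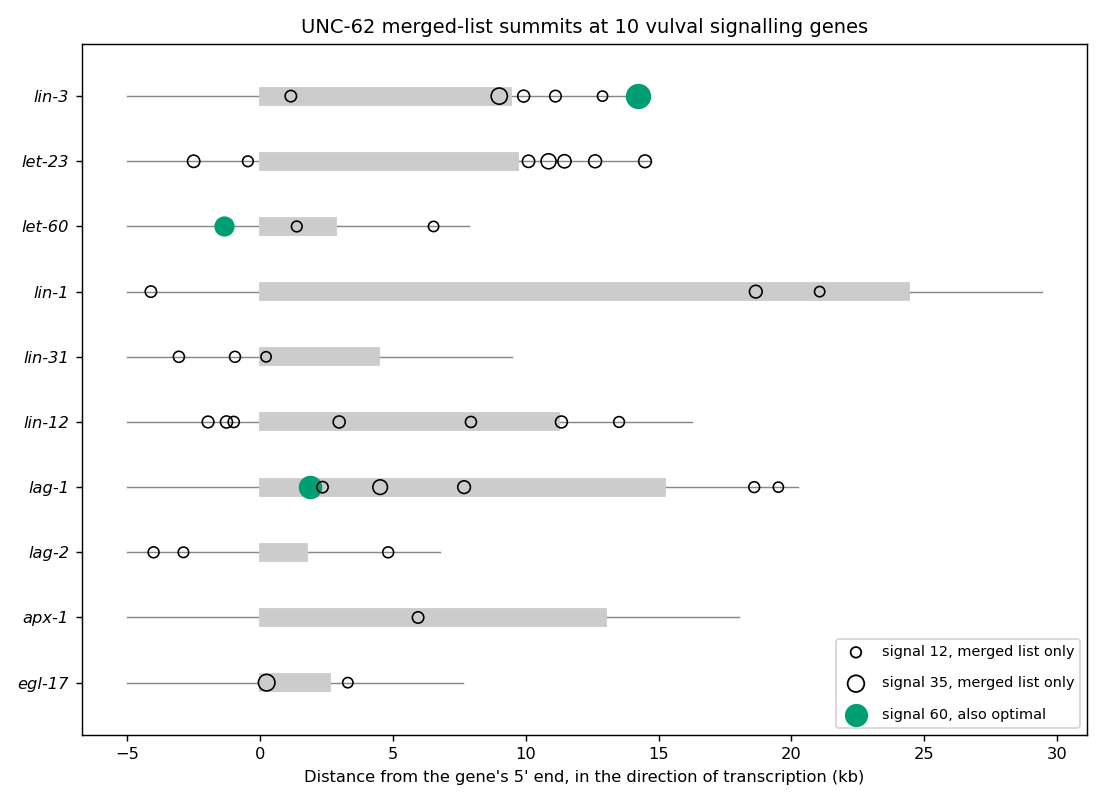
Positions of the 41 merged-list summits along the 10 genes, in kb from each gene's 5′ end in the direction of transcription. Grey boxes are gene bodies, grey lines the 5 kb on each side, circle area grows with the authors' signal, and filled circles mark the 3 optimal peaks at lin-3, let-60 and lag-1.

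Sequences of the merged summit with 50 bp on each side are given for the 5 leading regions outside UTRs, each the highest-ranked region of its gene and within rank 2074, and for the only summit window of the 10 genes with the site of PBX and Hox proteins. They are from the plus strand of the RefSeq genome of WBcel235 (ce11), 5′ to 3′, and capitals mark matches to a searched motif, overlapping matches run together.

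lin-3, downstream, chrIV:11068500-11068600: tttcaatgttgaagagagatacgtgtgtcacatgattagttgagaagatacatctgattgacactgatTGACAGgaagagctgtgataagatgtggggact

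lag-1, intron, chrIV:6097213-6097313: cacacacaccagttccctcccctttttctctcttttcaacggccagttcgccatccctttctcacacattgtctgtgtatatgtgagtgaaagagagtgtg

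let-60, upstream, chrIV:11692414-11692514: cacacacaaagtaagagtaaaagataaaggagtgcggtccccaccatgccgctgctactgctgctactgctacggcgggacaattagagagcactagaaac

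egl-17, intron, chrX:489878-489978: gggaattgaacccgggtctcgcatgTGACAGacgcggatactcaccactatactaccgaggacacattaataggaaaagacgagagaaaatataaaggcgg

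let-23, downstream, chrII:9208319-9208419: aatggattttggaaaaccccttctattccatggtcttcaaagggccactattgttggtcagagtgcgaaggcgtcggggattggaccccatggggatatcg

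lin-12, upstream, chrIII:9073386-9073486: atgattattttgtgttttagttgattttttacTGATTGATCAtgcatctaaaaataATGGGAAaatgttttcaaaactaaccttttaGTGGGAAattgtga

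The motifs searched on both strands within 50 bp of a summit were TGACAG of MEIS and Homothorax proteins, TGATTGAT of PBX with Hox proteins, its degenerate form TGATNNAT, which every TGATTGAT also matches, GAGAGAGA, the E-box CACGTG, the homeodomain core TAATTA, and ATGGGAA or GTGGGAA, the site of the LAG-1 family. TGACAG lay in 4 of the 41 windows (2 at lin-3 and 1 each at lag-1 and egl-17), 9.76%, beside 5.39% of all merged and 10.1% of all optimal summits. The LAG-1 type site also lay in 4 windows (2 at lag-1, 1 at lin-12 and 1 at lin-1), beside 3.35% of merged and 3.28% of optimal summits. TGATTGAT lay in 1 window (2.44%), at lin-12, beside 1.28% of merged and 3.57% of optimal summits. TGATNNAT lay in 2 windows, at lin-12 and lag-2, beside 8.95% of merged and 13.1% of optimal summits. TAATTA lay in 1, at lag-1, beside 4.28% of merged and 1.25% of optimal summits. GAGAGAGA and CACGTG were in no window, beside 2.38% and 2.16% of merged and 9.55% and 4.34% of optimal summits. These counts of 0 to 4 describe letters in the windows only. Each of the 6 printed windows occurs 1 time in the genome as an exact match.

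The EGF-type ligand gene lin-3 (WBGene00002992, chrIV:11054308-11063768, plus strand, 7 annotated starts) had the highest-ranked region of the 10 genes. The optimal peak (chrIV:11068372-11068727, signal 74.7, rank 175 of the merged list) was intergenic and lay 4782 bp beyond the 3′ end of the gene body. The nearest coding start was that of ttr-17, a transthyretin-related gene, 1524 bp away, and the nearest start of any kind was that of a pseudogene, 837 bp away. It thus lay inside the 5000 bp flank by a small margin and nearer to other genes than to a lin-3 start, the closest of which was 9251 bp away. Replicates 1, 2, 3 and 4 listed an overlapping region at rank 135, 540, 1052 and 94. It was among the 1037 highest of 3 replicates, and in replicate 3 it fell just outside. Of all protein-coding genes, 1.97% had a merged region of rank 175 or better in their windows, with no correction for window length. This share belongs to the highest-ranked of the 10 genes, picked after the ranks were seen. The same share for the best rank of each gene ran up to 67% at lag-2, and was 3.16% at lag-1.

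A second lin-3 region lay in the gene's own 3′ UTR (chrIV:11063131-11063486, signal 32.9, merged rank 1328) and differed in rank between the label sets. The best overlapping region ranked 138 in replicate 3 and 341 in replicate 4, against 16097 in replicate 1, and replicate 2 listed no overlapping region. The replicate 4 region at rank 341 overlapped only in part and had its summit in a lin-3 intron. In replicate 4 the region with its summit in the 3′ UTR ranked 5371. Both replicates of label set B were thus above both of label set A, but with 2 replicates against 2 no two-sided exact permutation p can be below 0.33. The remaining 4 merged regions of lin-3 had signals of 10.8 to 16.2 and ranks of 6496 to 17973. They lay in the promoters of ttr-16 and ttr-17, in intergenic sequence 1657 bp beyond lin-3, and in a lin-3 intron 1151 bp from a start, and none was among the 1037 highest regions of any replicate. No region of the merged list had its summit in a lin-3 promoter.

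The EGF receptor gene let-23 (WBGene00002299, chrII:9197512-9207213) had 7 merged regions and no optimal peak, with 5 of the 7 downstream of the gene body. The leading region (chrII:9208191-9208546, signal 27.9, merged rank 1870) was intergenic, 1156 bp beyond the 3′ end and 2007 bp upstream of the start of ZK1067.4. It ranked 1395 in replicate 1 and 1116 in replicate 3 and had no overlapping region in replicates 2 and 4, so 1 replicate of each label set listed it. The region in the let-23 promoter, 464 bp upstream of the start (chrII:9196870-9197225), had signal 12.2 and merged rank 13546. That promoter region ranked 1793 in replicate 2 and 25475 in replicate 1 and was not listed in replicates 3 and 4. The nearest optimal summit to a let-23 start was 74999 bp away.

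The Ras gene let-60 (WBGene00002335, chrIV:11688227-11691088, minus strand) had an optimal peak upstream of its only start. The peak (chrIV:11692286-11692641, signal 44.8, merged rank 704) was intergenic, 1376 bp upstream of the let-60 start, and so outside the promoter as defined by 1000 bp. The start of the coding gene ZK792.12 was 1329 bp away on the other side, and the summit lay 20 bp downstream of the start of an annotated non-coding RNA, ZK792.10. Replicate 1 listed it at rank 199, replicate 2 at 2515 and replicate 4 at 10356, and replicate 3 did not list it. Replicate 1 was the only replicate that held it among its 1037 highest regions. The other 2 merged regions of let-60 ranked 13373, in its intron, and 17161.

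The nuclear targets of the Ras pathway, the ETS factor gene lin-1 and the forkhead gene lin-31, had no merged region within rank 2074. At lin-1 (WBGene00002990, chrIV:2275861-2300286, minus strand), the longest of the 10 genes, 3 merged regions gave 0.871 per 10 kb. The best was intronic (chrIV:2281448-2281803, signal 18.7, rank 4593), 2445 bp upstream of the second annotated start. It ranked 5170 in replicate 1 and 1875 in replicate 2 and was not listed in replicates 3 and 4. A region 41 bp upstream of that second start had signal 11.2 and rank 16805. The best rank at lin-1 in replicate 4 was 742, from a region in an intron of the neighbour mksr-2, 4723 bp upstream of lin-1, that overlapped no merged region. The best in replicate 3, at rank 2213, lay in the lin-1 promoter, 326 bp upstream of the gene body, and also overlapped no merged region.

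At lin-31 (WBGene00003017, chrII:3982549-3987029) 3 merged regions had signals of 11.02 to 13.4 and ranks of 10724, 11740 and 17305. They lay 3062 bp upstream of the start, in the promoter at 950 bp upstream, and in a coding exon 221 bp downstream. The best ranks in replicates 1 to 4 were 9548, 7683, 8707 and 7616, all below rank 1037, and each came from a different region. The nearest optimal summit was 106881 bp from the start.

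The genes of the Notch ligands LAG-2 and APX-1, DSL-type proteins made by the primary cell, had low-ranked merged regions. By best merged rank lag-2 was the lowest of the 10 genes, and apx-1, with 1, had the fewest merged regions. At lag-2 (WBGene00002246, chrV:3188343-3190115) 3 merged regions had signals of 11.8 to 12.9, the best at rank 11767, and none was within 2000 bp of the gene body. Its best ranks in replicates 1 to 4 were 9222, 8245, 6648 and 8765. At apx-1 (WBGene00000168, chrV:3210196-3223221) 1 merged region lay in an intron, 889 bp downstream of one of 6 starts (chrV:3215962-3216317, signal 14.6, rank 8638). It was listed in all 4 replicates, at ranks 12463, 15652, 16048 and 26489. The best ranks at apx-1 in replicates 1 to 4 were 8630, 15652, 2605 and 14431, each from a different region. The one at 2605 lay in an apx-1 intron, was listed in replicate 3 alone and overlapped no merged region. The nearest optimal summits were 202872 bp from lag-2 and 172245 bp from an apx-1 start.

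The Notch receptor gene lin-12 (WBGene00003001, chrIII:9060221-9071472, minus strand) had 7 merged regions, all weak. Their signals were 12.4 to 16.6 and their ranks 6129 to 13194. Of these, 3 lay upstream at 998, 1270 and 1964 bp from the start, 2 lay in lin-12 introns, and the others lay in the 3′ UTR of gst-1 and a coding exon of cls-2. The first of the upstream regions lay just inside the promoter limit of 1000 bp. The best ranks in replicates 1 to 4 were 3779, 3945, 3307 and 4256, and each came from a different region. In that order these lay in the gst-1 3′ UTR, a lin-12 intron, the gst-1 promoter and a cls-2 coding exon, and those of replicates 2, 3 and 4 overlapped no merged region. The summit window 1964 bp upstream, printed above, held TGATTGAT and 2 LAG-1 type sites. TGATTGAT with at least 1 LAG-1 type site was in 6 of 18556 merged windows (0.0323%), a combination counted after it was seen in this window. That region ranked 7548 in the merged list and was listed in replicate 1 alone, at rank 9600.

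The LAG-1 gene itself (WBGene00002245, chrIV:6095407-6110655), which encodes the CSL-type DNA-binding effector of Notch, had the second highest region of the 10 genes. The optimal peak (chrIV:6097085-6097440, signal 63.1, merged rank 289) lay in an intron, 1856 bp downstream of the first annotated start. Replicate 1 listed it at rank 189 and replicate 2 at 136, against 5892 in replicate 3 and no region in replicate 4. Both replicates of label set A were above both of label set B, the reverse order of that at the lin-3 3′ UTR, and again with no two-sided p below 0.33 possible. The let-60 optimal peak and the best merged lin-1 region also ranked higher in both replicates of set A, as did some weaker regions. These orders were read off the ranks and not tested. Set A also stood higher over the whole optimal list. The 1037 highest regions of its replicates overlapped 78.9% and 59.8% of the optimal peaks, against 51.5% and 32.2% for set B. Of the other 5 merged regions of lag-1, 3 were also inside the gene. These were an intronic region 1589 bp upstream of the nearest lag-1 start (signal 26.1, rank 2144), a region 2346 bp downstream of the first start (signal 14.1, rank 9376) and a 5′ UTR region (signal 18.7, rank 4574). The first of them ranked 1718, 5832 and 19649 in replicates 1 to 3 and was not listed in replicate 4. The LAG-1 type site GTGGGAA lay in the window of the region at rank 9376, and the window of the optimal peak held none of the searched motifs.

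The fate marker egl-17 (WBGene00001185, chrX:489685-492318), an FGF-type gene active in the descendants of the primary cell, had the highest region outside the optimal list. The region (chrX:489750-490105, signal 34.7, rank 1191) had its summit in an intron, 154 bp downstream of a start. Its signal was below the lowest optimal signal of 37.3, while its −log10 q-value of 3.42 was the same as that of every optimal peak. It ranked 947 in replicate 1, 1068 in replicate 3 and 522 in replicate 4, and replicate 2 listed no overlapping region. The summit lay inside a tRNA gene on the opposite strand (WBGene00023035, chrX:489868-489939), and the TGACAG of the printed window lay inside that tRNA gene as well. The 72 bp of the tRNA gene occur in 21 exact copies in the genome. How the authors' alignment treated reads from repeated copies is not given in the sources used here, so the signal at this intron is uncertain, and its dependence on the tRNA copies was not tested. Summits inside tRNA genes made up 0.431% of the merged and 0.868% of the optimal list.

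**Figure D2:**
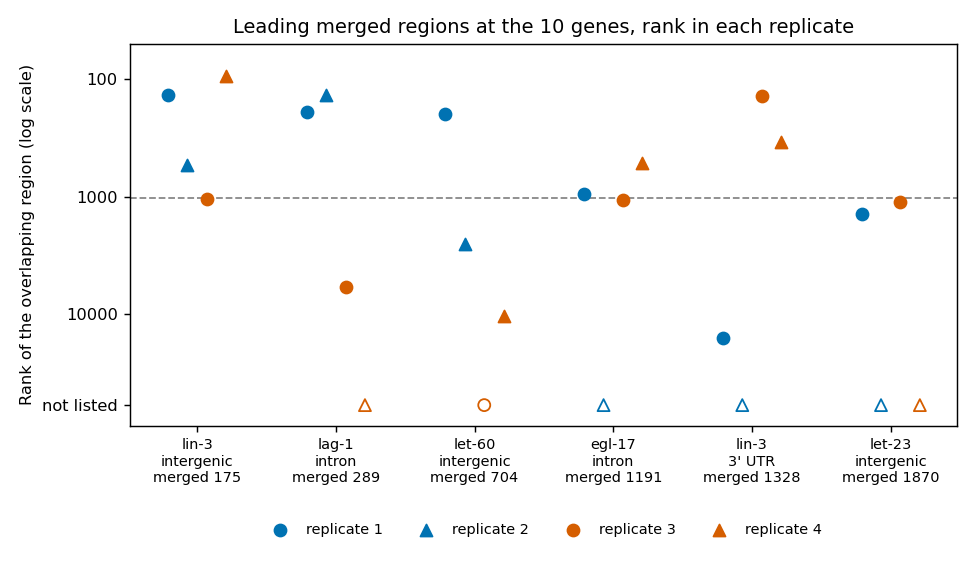
Rank in each replicate list (log axis, highest signal at the top) of the regions overlapping the 6 merged regions of the 10 genes within rank 2074, with blue for label set A, orange for label set B and open symbols where no region was listed. The dashed line is rank 1037, and the lin-3 intergenic region is the only one listed in all 4 replicates.

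By best merged rank, the order of the genes was lin-3 (175), lag-1 (289), let-60 (704), egl-17 (1191), let-23 (1870), lin-1 (4593), lin-12 (6129), apx-1 (8638), lin-31 (10724) and lag-2 (11767). The first 5 of these had a region within rank 2074, beside 19.5% of all genes. The replicates spread widely around this order. The best ranks of let-60 ran from 199 in replicate 1 to 16171 in replicate 3, those of egl-17 from 522 in replicate 4 to 15792 in replicate 2, and those of lag-1 from 136 in replicate 2 to 8791 in replicate 4. Those of lin-3 ran from 94 to 540, so that lin-3 was the only gene of the 10 with one of the 1037 highest regions of each of the 4 replicates. In replicate 3 that region was the one in the 3′ UTR, and in the other 3 replicates it was the intergenic one. This depended on the 5000 bp flank. Within 2000 bp of lin-3 the best ranks in replicates 1 and 2 were 5209 and 1153. The share of all genes with such a region in every replicate was not counted. The ranges of lag-1, let-60 and egl-17 overlapped each other, as did those of lin-31, lag-2 and apx-1, and the order differed between replicates. In replicate 3, let-23 (1116), lin-1 (2213), apx-1 (2605) and lin-12 (3307) ranked above lag-1 (5892) and let-60 (16171). In replicate 4, lin-1 (742) ranked above let-60 (2696) and lag-1 (8791).

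Genes with one of the 1037 highest regions of a replicate in the window numbered 4 in replicate 1 (lin-3, lag-1, let-60 and egl-17), beside 10.3% of all genes. The number was 2 in replicate 2 (lin-3 and lag-1), beside 10.3%. It was 1 in replicate 3 (lin-3), beside 10.2%. It was 3 in replicate 4 (lin-3, egl-17 and lin-1), beside 10.8%. The mean was 2.5 ± 1.29 of 10 genes (SD, n = 4), or 25% ± 12.9 against 10.4% ± 0.271 of all genes. Label set A had a mean of 3 genes and label set B of 2, a difference that did not pass (exact permutation test, two-sided, p = 0.667, with 0.33 the smallest possible). Left-out replicates were examined by keeping only optimal peaks among the 1037 highest of each of the other 3. The count of genes with an optimal peak was then 0 without replicate 1, 2 or 4, and 1 (lin-3) without replicate 3. This demand is stricter than that of the main count, which asked for no rank in single replicates. The let-60 peak was among the 1037 highest of 1 replicate, the lag-1 peak of 2 and the lin-3 peak of 3. The lower counts therefore do not measure the weight of any 1 replicate. The share of all genes meeting the demand is not given here.

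**Figure D3:**
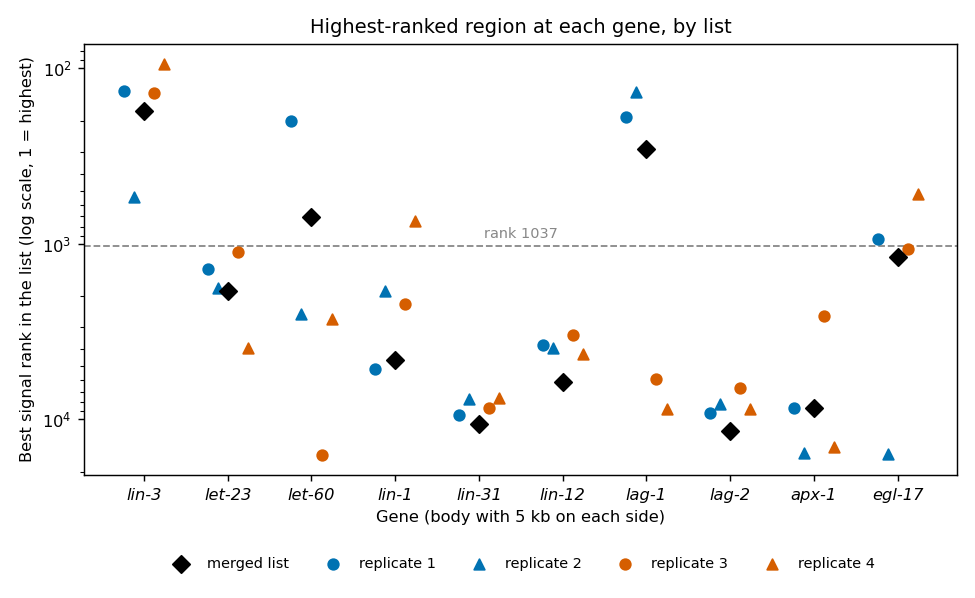
Best signal rank at each of the 10 genes (log axis, highest signal at the top) in the merged list and in each of the 4 replicates, with blue for label set A and orange for label set B. The lin-3 points lie between 94 and 540, all above the dashed line at rank 1037, while those of lin-31 and lag-2 all lie at rank 6648 or lower.

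Starts of 5 of the 10 genes had a summit of the merged list, beside 29.1% of all genes. These were egl-17 (154 bp downstream), let-23 (464 bp upstream), lin-1 (41 bp upstream of the second start), lin-12 (998 bp upstream) and lin-31 (950 bp upstream). Apart from egl-17, these start regions were weak, with ranks of 10027 to 16805. By class, 14 of the 41 merged summits were intergenic, 11 intronic and 10 in promoters, of which 4 were promoters of the 10 genes and the rest of their neighbours. Promoters thus held 24.4% of these summits beside 29.6% of the merged list, introns 26.8% beside 27.3%, intergenic sequence 34.1% beside 26.8%, and coding exons 4.88% beside 11.5%. For 20 of the 41 the nearest coding start belonged to 1 of the 10 genes. By chromosome, the windows held more merged summits per 10 kb than the whole chromosome on II (2.93 against 1.84), III (3.29 against 2.01) and IV (1.96 against 1.68), and fewer on V (1.15 against 1.61) and X (1.58 against 2.17). These rest on 2 to 18 summits a chromosome and were not tested. By position, 14 lay inside the gene bodies, 11 upstream and 16 downstream.

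Other genes of the same pathways were taken from 4 lists. Of 31 further EGF and Ras genes, 5 had an optimal summit in the window (16.1%, beside 10.4% of all genes). The peak at lip-1, a phosphatase gene that opposes MAP kinase and is a Notch target in secondary cells, had signal 60.3. It lay 3703 bp upstream of lip-1 and 52 bp upstream of the start of a non-coding RNA, C05B10.19. The peak at mpk-1, the ERK-type MAP kinase gene, had signal 49.6 and lay in an intron. Further peaks lay 134 bp upstream of eor-2 (47.4), in an intron of the PDZ gene lin-2 (43.4), whose product localizes LET-23, and 2446 bp upstream of the adaptor gene sem-5 (40.9). Below the optimal set the leading regions were those in the windows of ksr-1 (rank 1159), lin-7 (1272), soc-2 (1281) and sur-5 (1576). The region in the ksr-1 window lay in the promoter of the neighbour sec-16A.2, 3673 bp beyond ksr-1. That of lin-7 lay in a promoter shared with elof-1 and Y54G11A.17. All 31 genes had a merged region, and the median best rank was 3359, beside 3231 for the 10 genes and 7324 for all genes.

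Of 23 matched Notch genes, 2 had an optimal summit in the window (8.7%, beside 10.4% of all genes). At dpy-23, an AP2 adaptor gene and lateral signal target, the peak had signal 79.7 and lay 348 bp upstream of the start. It ranked 374, 415 and 87 in replicates 1 to 3 and 8498 in replicate 4. At osm-11, which encodes a secreted co-ligand of Notch, the peak had signal 48.3, lay 268 bp beyond the gene and was among the 1037 highest of all 4 replicates, with ranks of 526, 230, 395 and 270. Below the optimal set the leading regions were in the windows of lst-4 (rank 1266), the metalloprotease gene sup-17 (1640), sel-8 (1919) and lin-10 (2212). The region in the lst-4 window lay in the promoter of the neighbour ccar-1. The product of sel-8 acts with LAG-1, and lin-10 is also in the EGF and Ras list. The median best rank was 5977, and 87% of these genes had a merged region.

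Of 20 synMuv genes, which repress lin-3 outside the anchor cell, 5 had an optimal summit in the window (25%, beside 10.4% of all genes). A summit was at a start for 3 of the 20, beside 2.63% of all genes, and for 1 gene in each of the other 3 lists. The peak in the window of the heterochromatin protein gene hpl-2 had signal 222.7 and merged rank 2, but it lay 3720 bp upstream of hpl-2 and 57 bp from the start of tasp-1. That of lin-54 had signal 97.6 and lay 368 bp upstream of lin-54 and 25 bp upstream of the ribosomal protein gene rpl-12. The let-418 window peak (62.6) lay beyond the gene in the promoter of srh-76. Those of lin-9 (48.0), 171 bp upstream, and efl-1 (45.3), 160 bp upstream, ranked 449 and 721 in replicate 1 but 20008 and 25552 in replicate 4. The next regions were in the windows of lin-56 (rank 1928), lin-36 (1977), lin-53 (2791) and lin-38 (3548). That of lin-56 lay 4140 bp upstream of the gene, and those of lin-53 and lin-38 lay in promoters shared with neighbours.

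Of 20 anchor cell and vulval fate genes, 4 had an optimal summit in the window (20%, beside 10.4% of all genes). They were the Hox gene lin-39 (signal 70.4, 28 bp upstream of a start), the Fos-type gene fos-1 (62.5, 3096 bp upstream), the hemicentin gene him-4 (59.3, intronic) and, in the neighbour dnj-5's promoter, the fusogen gene aff-1 (39.1). The leading regions below the optimal set were at zmp-1 (rank 1537), hlh-2 (1708), cdh-3 (1825) and nhr-67 (1883), and each lay beyond the 3′ end of the gene, in or near another gene. Across the 4 lists the median windows were 13392 to 17323 bp, longer than the 12027 bp of all genes.

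**Figure D4:**
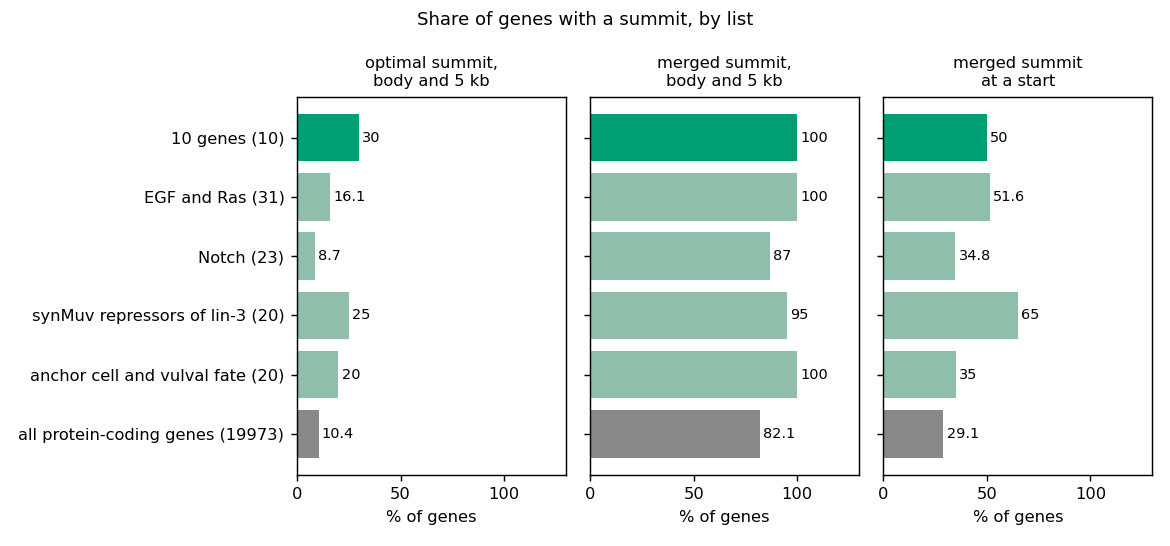
Share of genes (percent) with an optimal summit in the window, a merged summit in the window, or a merged summit from 1000 bp upstream to 200 bp downstream of a start, for the 10 genes, the 4 pathway lists and all protein-coding genes, with the number of genes in brackets. The 10 genes stand at 30%, 100% and 50%, beside 10.4%, 82.1% and 29.1% of all genes.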

How the data were processed

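ChIP-seq of eGFP-tagged UNC-62 in L3 larvae gave, per the notes deposited with the files, 1 list of peaks and background per replicate, a merged list from all 4 replicates with a control, and an optimal list from the merged and replicate lists. The 6 deposited ce11 lists give a signal value and a −log10 q-value per region, by the authors, and a summit offset. Aligner and peak caller: not given in the sources used here. No depth is known, and ce10 lists and alignments were not used here.

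Genes came from Ensembl release 115 (WBcel235) and sequence from RefSeq's WBcel235. Coordinates are 1-based. A region belonged to a gene by its summit. A summit was promoter if within 1000 bp upstream of a coding start. Otherwise it was classed as UTR or coding exon, then as intron, and the rest were intergenic, with 5′ UTR before coding exon and 3′ UTR after it. A replicate region matched a merged region by at least 1 bp. Counts were set beside all protein-coding genes with no enrichment test. Of the pathway lists' genes, those with an optimal summit in the window and up to 4 others by merged rank were named, and 1 listed symbol, lst-3, had no match in the annotation. Members, lists and the motifs were chosen with earlier results of these data known. Other flanks, start windows, thresholds and left-out replicates were tried. The counting steps were checked on made-up positions. Computation used Python 3.11.15, pandas 2.3.3, numpy 2.4.6 and scipy 1.17.1.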

Additional observations from a re-analysis of the deposited data

Results flagged for a closer look

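In 22 sets of 4 replicate values examined, 4 held a replicate far from the other 3, with a gap to its nearest neighbour, as a share of the whole range, above Dixon's 95% critical value. Chance flags about 1 in 20 sets of normally distributed values, and the rate for ranks and small counts such as these was not tested. The best rank at lin-3 was 540 in replicate 2, against 94 to 138 in the others. The best rank at let-60 was 16171 in replicate 3, against 199 to 2696 in the others. The best rank at egl-17 was 15792 in replicate 2, against 522 to 1068 in the others. At apx-1 replicate 2 listed 3 regions in the window where each of the others listed 6. Replicate 2 was the distant one in 3 of the 4 sets.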

How the results depend on the processing

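Of 27 alternative values for the counts, means, density and difference above, 22 stayed within 1.5 times the main count, within 1 SD of the mean, within the interval, or in the same direction. Requiring support in the 3 remaining replicates when 1 was left out moved the count of genes with an optimal peak from 3 to between 0 and 1. The main count made no such demand, so this change does not show the effect of leaving out a replicate alone. With 500 bp upstream, 3 genes had a merged summit at a start in place of 5. The mean number of genes with one of the 1037 highest regions of a replicate was 2 to 3 with a replicate left out. For best ranks of single genes, 3 of 19 were counted as moved. These were lin-3, to 1328, and lin-31, to 11740, with 2000 bp on each side, and lin-12, to 1212, with 10000 bp. The change at lin-31, from 10724, was smaller than the gap between its best ranks in replicates 1 and 4, 9548 and 7616. With 2000 bp no best rank exists for lag-2. No paired analysis was possible because all samples form 1 group. Without read counts, no limit from depth can be given for an unlisted region.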
